A study of Mus musculus with 6 samples.

Results

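The 10 keratin genes described here were followed by symbol in all 6 libraries of sorted mouse mammary cells, 5 of them taken as basal keratins (Krt5, Krt14, Krt15, Krt17 and Krt6a) and 5 as luminal keratins (Krt7, Krt8, Krt18, Krt19 and Krt23). They are 10 of the 54 keratin symbols and of the 55291 gene symbols in the count files. All 10 passed the filter on low counts, which left 17268 genes for testing.

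The libraries came from the abdominal glands of pubertal mice, 6 weeks old, that carried 1 lacZ reporter allele of Adgra3 (Adgra3-lz/+), the gene for the adhesion receptor Gpr125. Cells that bore CD31, CD45 or Ter119 were removed according to the series record, and cells with high surface CD49f (integrin α6) were then divided by their β-galactosidase activity, read with the fluorogenic substrate FDG. The 2 libraries labelled Gpr125-negative held FDG-negative, CD49f-high cells and carry no region label. The 2 TEB-distal Gpr125+ and the 2 nipple-proximal Gpr125+ libraries held FDG-positive, CD49f-high cells from the outer part of the gland, where terminal end buds (TEBs) lie, and from the part near the nipple. Every group shared the reporter genotype, so no library represents wild-type tissue, and each sample pooled glands of 5 mice according to the series record, whereas the methods text gives fewer mice per preparation. Total counts were between 20134890 and 37296640 per library, and 3 counts, taken as the smallest level shown, were worth 0.0804 to 0.149 CPM (counts scaled to the size of the library), which covers counting error only. All other CPM values use library sizes normalized with the TMM method. Adgra3 itself was at 15.0 and 4.83 CPM in TEB-distal cells, at 19.2 and 12.3 CPM in nipple-proximal cells and at 35.7 and 18.6 CPM in cells labelled Gpr125-negative, so the mRNA of the reporter's host gene was lower in both TEB-distal libraries than in either library labelled negative. The names negative, TEB-distal and nipple-proximal cells below stand for these labels. The labels do not say whether libraries of a group came from separate animals, and the p-values then measure only the spread between these libraries.

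Keratins form the intermediate filaments of epithelial cells. A filament needs a type I and a type II keratin, which pair with each other, and the pairs differ between cell layers: Krt5 (type II) with Krt14 (type I) in the basal, myoepithelial layer of the mammary duct, and Krt8 (type II) with Krt18 (type I) in its luminal layer. Krt15 and Krt17 are further type I keratins of basal and appendage epithelia, Krt6a is an inducible type II keratin also known from terminal end buds, Krt7 is a type II and Krt19 a type I keratin of simple epithelia, and Krt23 is a type I keratin found in several glandular epithelia.

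Some of these genes are close copies, which limits how well short reads can be given to one of them. The genes lie in the keratin clusters of mouse chromosomes 11 and 15 (GENCODE M21, GRCm38), with Krt18, a type I gene, beside the type II genes on chromosome 15. Exact runs of 50 bases that also occur in another gene's transcripts made up 62% of the Krt6a transcript (43.6% shared with Krt6b), 29.7% of Krt8 (26.9% with the pseudogene Krt8-ps), 14.4% of Krt14 (11.4% with Krt16 and 3.34% with Krt17) and 12.2% of Krt5. For Krt17 the share was 3.99%, for Krt15, Krt18 and Krt7 it was at most 0.72%, and for Krt19 and Krt23 it was 0. The longest coding runs shared between Krt14 and its partners are printed because Krt14 and Krt17 had the highest mean levels per kilobase of the 10. Capitals mark the shared bases, in the coding strand of exons 6 and 7 for Krt17 (71 bases, which encode the conserved end of the keratin rod domain) and of exon 1 for Krt16 (134 bases, which include the conserved start of the rod).
Krt14, chr11:100204007-100204204, minus strand: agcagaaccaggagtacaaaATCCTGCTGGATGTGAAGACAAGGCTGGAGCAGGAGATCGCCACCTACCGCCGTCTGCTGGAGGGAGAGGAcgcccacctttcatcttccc
Krt17, chr11:100257332-100257529, minus strand: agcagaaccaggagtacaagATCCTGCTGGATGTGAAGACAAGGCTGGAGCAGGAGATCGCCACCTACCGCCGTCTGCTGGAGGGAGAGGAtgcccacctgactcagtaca
Krt14, chr11:100206997-100207170, minus strand: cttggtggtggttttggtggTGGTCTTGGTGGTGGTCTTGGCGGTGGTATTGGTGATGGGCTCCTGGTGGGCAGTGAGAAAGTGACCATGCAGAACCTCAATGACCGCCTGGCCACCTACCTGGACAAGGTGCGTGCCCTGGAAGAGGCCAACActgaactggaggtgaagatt
Krt16, chr11:100248456-100248629, minus strand: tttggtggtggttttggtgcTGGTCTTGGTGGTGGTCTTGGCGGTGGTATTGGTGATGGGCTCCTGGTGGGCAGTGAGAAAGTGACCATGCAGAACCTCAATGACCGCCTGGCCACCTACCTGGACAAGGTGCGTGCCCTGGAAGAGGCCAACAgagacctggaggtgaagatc

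The run that Krt6a shares with Krt6b is the longest of those compared, at 280 coding bases of exon 1, and a read inside it cannot be given to either gene alone.
Krt6a, chr15:101693926-101694225, minus strand: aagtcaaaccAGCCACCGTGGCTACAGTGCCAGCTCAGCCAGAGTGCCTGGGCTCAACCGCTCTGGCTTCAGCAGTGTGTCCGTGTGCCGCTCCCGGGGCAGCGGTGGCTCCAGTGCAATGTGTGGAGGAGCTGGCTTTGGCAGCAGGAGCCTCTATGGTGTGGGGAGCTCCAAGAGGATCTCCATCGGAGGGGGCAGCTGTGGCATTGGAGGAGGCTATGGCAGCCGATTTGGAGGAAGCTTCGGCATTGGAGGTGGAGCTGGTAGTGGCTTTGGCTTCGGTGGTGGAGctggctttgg
Krt6b, chr15:101679901-101680200, minus strand: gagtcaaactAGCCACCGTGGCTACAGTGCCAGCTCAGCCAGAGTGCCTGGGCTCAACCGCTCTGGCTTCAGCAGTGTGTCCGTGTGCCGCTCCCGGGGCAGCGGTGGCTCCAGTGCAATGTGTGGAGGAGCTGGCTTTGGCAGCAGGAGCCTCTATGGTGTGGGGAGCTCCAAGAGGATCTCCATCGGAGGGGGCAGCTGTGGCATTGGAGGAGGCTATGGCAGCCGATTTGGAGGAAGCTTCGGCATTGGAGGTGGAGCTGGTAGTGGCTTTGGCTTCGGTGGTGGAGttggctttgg

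Basal and luminal keratins were present together in each of the 6 libraries, and none of the 10 passed the call rule of edgeR's quasi-likelihood test between sorted populations. As a share of the normalized CPM per kilobase summed over the 10 genes, the luminal keratins made up 46.3% and 15.6% for TEB-distal cells, 22.6% and 14.2% for nipple-proximal cells and 41.7% and 20.1% for negative cells. Replicates thus differed as widely as the groups. In the order TEB-distal, nipple-proximal and Gpr125-negative the group means were 30.9% ± 21.7 (SD, n = 2), 18.4% ± 5.90 (SD, n = 2) and 30.9% ± 15.3 (SD, n = 2), and with 2 libraries against 2 a two-sided exact permutation test cannot give a p below 0.333. The 10 genes together took 0.384% and 1.41% of all counts for TEB-distal cells, 0.962% and 1.03% for nipple-proximal cells and 0.635% and 0.297% for negative cells. By raw counts the luminal share was highest in TEB-distal replicate 1, at 48.4% (95% Clopper-Pearson interval 48.0% to 48.7%, counting error only), and lowest in nipple-proximal replicate 2, at 14.7%. In bulk RNA a lower level from fewer cells of a type and one from less RNA per cell cannot be told apart.

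**Figure D1:**
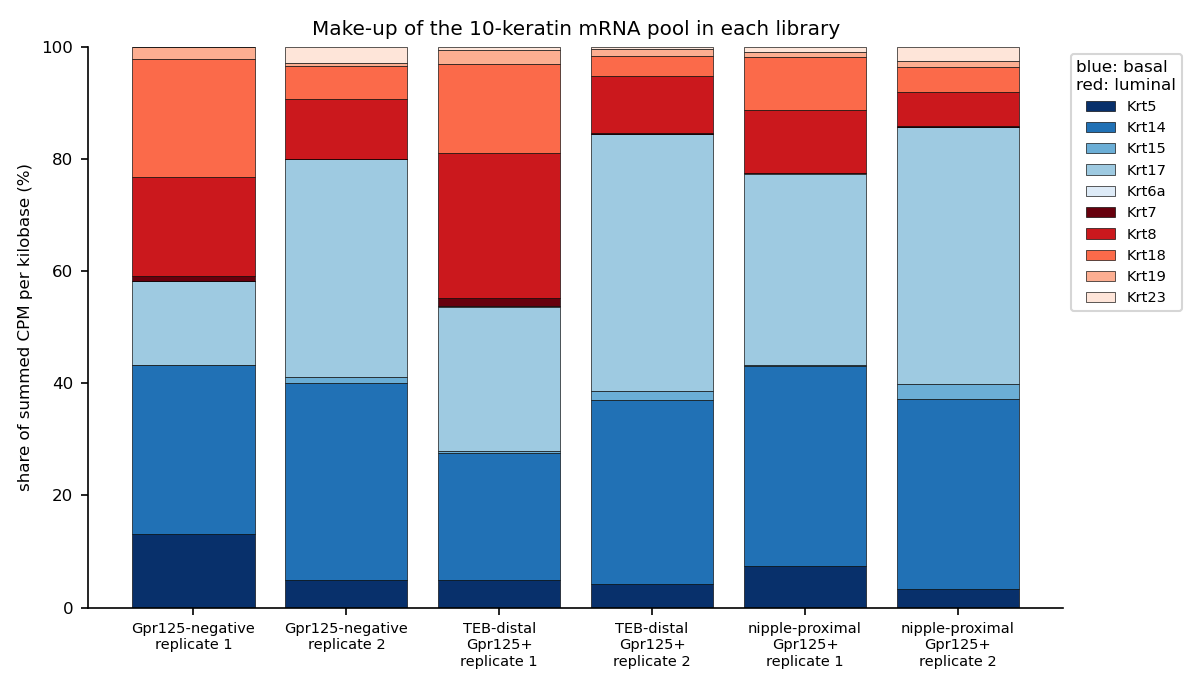
Stacked bars give each keratin's share (%) of the CPM per kilobase summed over the 10 keratins in each of the 6 libraries, with basal keratins in blues and luminal keratins in reds. The red part is 41.7% and 46.3% in replicate 1 of the Gpr125-negative and TEB-distal libraries and between 14.2% and 22.6% in the other 4.

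Per kilobase of transcript, the order of mean levels over the 6 libraries was led by Krt17 (1819 CPM per kilobase) and Krt14 (1556), ahead of Krt8 (533), Krt18 (372) and Krt5 (267). A second tier held Krt19 (61.4 CPM per kilobase), Krt15 (58.3) and Krt23 (54.6), and the lowest were Krt7 (14.4) and Krt6a (1.93). The ranges of all 9 neighbouring pairs in this order overlapped across the libraries. Within a library Krt5 was above Krt19 and Krt7 was above Krt6a in 6 of 6 cases, whereas Krt17 was above Krt14 in only 4 of 6 and Krt19 above Krt15 in 3 of 6. The most stable level across the 6 libraries was that of Krt8, whose highest CPM was 4.02 times its lowest, and the widest range among genes detected in every library was that of Krt15, at 1054 times.

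**Figure D2:**
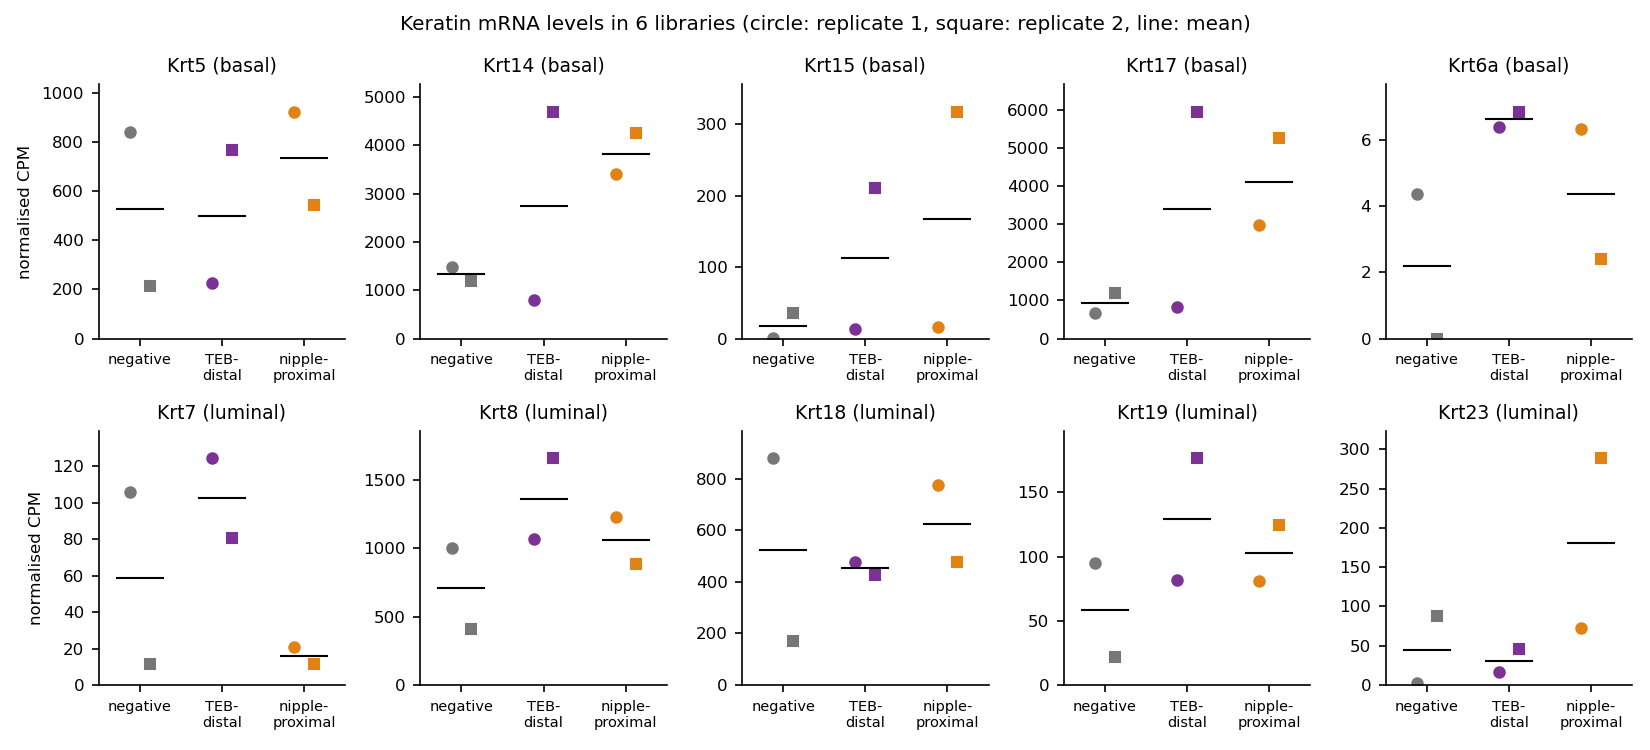
Normalized CPM of each of the 10 keratins (one panel each, linear axis from 0 with its own scale) in the 3 groups; circles are replicate 1, squares replicate 2 and lines the mean of the 2 libraries. Krt14 and Krt17 stand above both Gpr125-negative libraries in both nipple-proximal libraries, Krt7 is higher in both TEB-distal than in both nipple-proximal libraries, and one TEB-distal library lies far above the other for Krt14, Krt15 and Krt17.

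Krt14 (chr11:100203162-100207548), the type I keratin that defines the basal layer, was at 1490 and 1194 CPM in the libraries labelled Gpr125-negative, at 807 and 4697 CPM in the TEB-distal and at 3404 and 4257 CPM in the nipple-proximal libraries. Both nipple-proximal libraries were above both negative ones, while the TEB-distal libraries lay on either side of them. Relative to negative cells its log2 fold change came to 1.51 (standard error 0.97) for nipple-proximal and 1.04 (standard error 0.96) for TEB-distal cells, both with an adjusted p of 1 in edgeR's quasi-likelihood test.

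Krt17 (chr11:100256217-100261029) was at 678 and 1201 CPM in the libraries labelled negative, at 835 and 5964 CPM in the TEB-distal and at 2980 and 5271 CPM in the nipple-proximal libraries. Its arrangement was like that of Krt14, with the nipple-proximal libraries high and one TEB-distal library within the range of the negative ones. Against negative cells nipple-proximal cells were higher by 2.14 on the log2 scale (standard error 1.07, adjusted p = 1, edgeR's quasi-likelihood test), and TEB-distal cells by 1.86 (standard error 1.06, adjusted p = 0.927, same test). The difference of the TEB-distal cells rested on TEB-distal replicate 2, since without that library the log2 fold changes of Krt17 and Krt14 were -0.18 and -0.74.

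Krt5 (chr15:101707070-101712898), the type II partner of Krt14, was at 839 and 215 CPM in the libraries labelled negative, at 227 and 766 CPM in the TEB-distal and at 922 and 545 CPM in the nipple-proximal libraries. All 3 groups overlapped. Its log2 fold changes were -0.09 (standard error 0.94) for TEB-distal and 0.48 (standard error 0.95) for nipple-proximal against negative cells.

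Krt15 (chr11:100131758-100135928) had 14 and 1066 counts among negative libraries, 337 and 6200 among TEB-distal and 342 and 6746 among nipple-proximal libraries, or 0.301, 36.1, 13.1, 211, 16.8 and 318 CPM. Each group held one low and one high library, and the low Gpr125+ libraries were below the higher negative one. The log2 fold changes of 2.62 (standard error 2.09) for TEB-distal and 3.20 (standard error 2.14) for nipple-proximal cells against negative cells carried the widest errors of the set along with those of Krt6a.

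Krt6a (chr15:101689910-101694307) had 203 and 0 counts among negative libraries, 164 and 201 among TEB-distal and 129 and 51 among nipple-proximal libraries, or 4.37, 0, 6.39, 6.84, 6.34 and 2.40 CPM. Both TEB-distal libraries were above all others, the lower of them by little. The fitted log2 fold changes of 1.60 (standard error 2.13) and 1.00 (standard error 2.10) for TEB-distal and nipple-proximal against negative cells depend on how the count of 0 is handled, and most of its transcript is shared with other genes, as given above.

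Among the luminal keratins, Krt8 (chr15:101996698-102004482) was at 1006 and 413 CPM in the libraries labelled negative, at 1067 and 1659 CPM in the TEB-distal and at 1229 and 886 CPM in the nipple-proximal libraries. Both TEB-distal libraries were above both negative ones, by little for the lower of them. The log2 fold change was 0.94 (standard error 0.79) for TEB-distal and 0.58 (standard error 0.79) for nipple-proximal against negative cells.

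Krt18 (chr15:102028180-102032027), the type I partner of Krt8, was at 880 and 169 CPM in the libraries labelled negative, at 479 and 428 CPM in the TEB-distal and at 774 and 476 CPM in the nipple-proximal libraries. The negative libraries enclosed all 4 Gpr125+ libraries. Its log2 fold changes were -0.21 (standard error 0.89) for TEB-distal and 0.25 (standard error 0.89) for nipple-proximal cells.

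Krt19 (chr11:100140810-100148665) was at 94.8 and 21.5 CPM in the libraries labelled negative, at 81.6 and 177 CPM in the TEB-distal and at 81.2 and 125 CPM in the nipple-proximal libraries. The groups overlapped, with one low library among the negative ones. The log2 fold changes were 1.15 (standard error 0.86) for TEB-distal and 0.83 (standard error 0.86) for nipple-proximal cells.

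Krt7 (chr15:101411043-101430313) showed the clearest separation between the regions. It had 3189 and 2368 counts among TEB-distal and 420 and 241 among nipple-proximal libraries, or 124 and 80.6 against 20.6 and 11.3 CPM, and was at 106 and 11.4 CPM in the libraries labelled negative. Both TEB-distal libraries were well above both nipple-proximal ones, while the negative libraries spanned nearly the whole range. The log2 fold change of TEB-distal against nipple-proximal cells was 2.68 (standard error 1.05, a 6.41-fold difference), and it passed an unadjusted p of 0.05 in edgeR's quasi-likelihood test but had an adjusted p of 1. DESeq2 fitted to these 4 libraries called it (log2 fold change 2.72, adjusted p = 0.0116), and DESeq2 on all 6 libraries did not (2.81, adjusted p = 0.414). Since the TEB-distal and nipple-proximal libraries did not overlap, leaving out any of the 4 in turn could hardly change the sign. The log2 fold changes were then 2.30 to 3.17. Relative to negative cells Krt7 differed by 0.81 on the log2 scale (standard error 1.00) for TEB-distal and by -1.87 (standard error 1.02, adjusted p = 1, edgeR's quasi-likelihood test) for nipple-proximal cells.

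Krt23 (chr11:99477974-99493137) had the opposite arrangement between regions. It had 419 and 1333 counts among TEB-distal and 1488 and 6131 among nipple-proximal libraries, or 16.3 and 45.4 against 73.1 and 289 CPM, and was at 1.98 and 87.3 CPM in the libraries labelled negative. The lower nipple-proximal library was above the higher TEB-distal one. The log2 fold change of TEB-distal against nipple-proximal cells was -2.55 (standard error 1.51, adjusted p = 1, edgeR's quasi-likelihood test).

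Set side by side, the comparisons with the libraries labelled Gpr125-negative, which both use the same 2 negative libraries, were described by the number of positive log2 fold changes, and 1 library turned the summary of basal keratins around. Of the 5 basal keratins, 4 had a positive value for TEB-distal cells (median log2 fold change 1.60) and 5 for nipple-proximal cells (median 1.51), where the medians of all 17268 genes were 0.03 and -0.003. Without TEB-distal replicate 2, 1 of 5 basal keratins was positive for TEB-distal cells and the median was -0.47, while for nipple-proximal cells leaving out any library gave 4 or 5 positive values and medians from 1.36 to 1.67. Of the 5 luminal keratins, 3 and 4 were positive, with medians of 0.81 and 0.58. Between the regions, TEB-distal against nipple-proximal, 1 of 5 basal keratins was positive (median -0.48) and 3 of 5 luminal keratins were (median 0.32), against 0.06 for all genes. That order also rested on single libraries. Without TEB-distal replicate 1, 5 of 5 basal keratins were positive (median 0.42), without nipple-proximal replicate 2, 3 of 5 were (median 0.04), and without TEB-distal replicate 2, 1 of 5 luminal keratins was positive (median -0.35). Scaling by DESeq2's size factors in place of TMM moved the median of all genes to -0.17 for nipple-proximal against negative cells and to 0.19 between the regions, a shift common to all genes of a comparison.

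No keratin was called at a false discovery rate under 0.1 with at least a 2-fold change in any of the 3 comparisons, and over all genes tested the share called by edgeR's quasi-likelihood test was 0% each time. Adjusted p was 1 for every keratin and comparison except Krt17 in TEB-distal against negative cells. At an unadjusted p under 0.05, 0 of 10 keratins passed for TEB-distal against negative cells (6.05% of all genes, 1045 genes), 0 of 10 for nipple-proximal against negative cells (3.55%, 613 genes) and 1 of 10, Krt7, between the regions (2.21%, 381 genes). With DESeq2 on all 6 libraries, 635, 208 and 101 genes were called in these comparisons, none of them among the 10 keratins. Replicates varied widely, with a common biological coefficient of variation of 0.967.

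**Figure D3:**
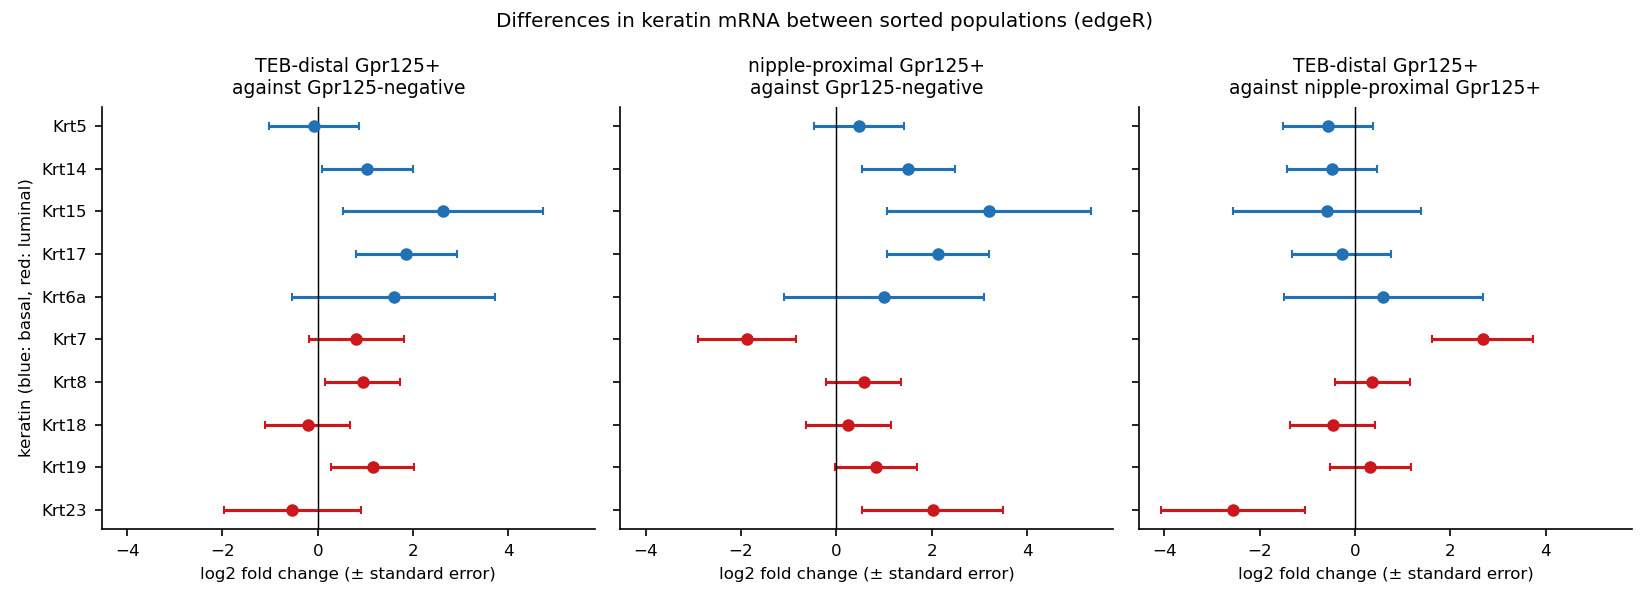
Points are log2 fold changes of the 10 keratins from edgeR in the 3 comparisons (one panel each), bars are their standard errors, and blue and red mark basal and luminal keratins. Krt7 and Krt23 lie furthest from 0 between the regions, at 2.68 and -2.55, and no keratin passed the adjusted threshold in any panel.

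Against negative cells, 5 of 10 keratins were at least 2-fold higher for TEB-distal cells (22.7% of all genes tested) and 0 lower (18.3%), and 4 of 10 were for nipple-proximal cells (18.5%), with Krt7 at least 2-fold lower (19% of all genes). Between the regions Krt7 was at least 2-fold higher (20.6%) and Krt23 at least 2-fold lower (13.8%) in TEB-distal cells. Without regard to size, Krt6a and Krt8 were higher in both TEB-distal than in both negative libraries, as were 14% of all genes tested. Krt14 and Krt17 were higher in both nipple-proximal than in both negative libraries, as were 19.9% of all genes. Between the regions, Krt6a and Krt7 were higher in both TEB-distal libraries (15.2% of all genes) and Krt23 was lower (18.3%). No member lay above both negative libraries in all 4 Gpr125+ libraries, a pattern shown by 7.66% of all genes, and none lay below them, as 5% did. By group means, the nipple-proximal cells had the highest level for 6 of the 10 keratins, the TEB-distal cells for 4 and the Gpr125-negative cells for 0. This order was not counted over all genes, and some of the means rest on 1 library. For Krt15 the nipple-proximal libraries were at 16.8 and 318 CPM.

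The ratio between partners within a library is not affected by the scaling between libraries. The type II members (Krt5, Krt6a, Krt7 and Krt8) are fewer than the type I members and summed to less in every library. Bases shared with other genes take up more of Krt6a and Krt8 than of Krt14, and their effect on the ratio was not tested. The ratios of CPM per kilobase, type II over type I, were 0.481 and 0.170 for TEB-distal cells. They were 0.231 and 0.105 for nipple-proximal cells and 0.464 and 0.185 for negative cells. For the basal pair, Krt5 over Krt14 was 0.217 and 0.126 for TEB-distal cells, 0.209 and 0.0989 for nipple-proximal cells and 0.435 and 0.139 for negative cells. Both quantities overlapped between the groups.

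For the luminal pair, Krt8 over Krt18 per kilobase was 1.64 and 2.85 for TEB-distal cells, 1.16 and 1.36 for nipple-proximal cells and 0.839 and 1.80 for negative cells. The TEB-distal ratios were above both nipple-proximal ones, and the negative libraries overlapped both regions. Krt17 over Krt14 was between 0.959 and 1.39 in 5 libraries and 0.498 in the negative replicate 1, and Krt14 exceeded Krt17 in that library and narrowly in nipple-proximal replicate 1. The ratio of Krt14, the basal type I keratin, to Krt18, the luminal one, was 1.43 and 9.29 for TEB-distal cells, 3.72 and 7.56 for nipple-proximal cells and 1.43 and 5.99 for negative cells. One library of the negative and one of the TEB-distal group shared the lowest value.

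**Figure D4:**
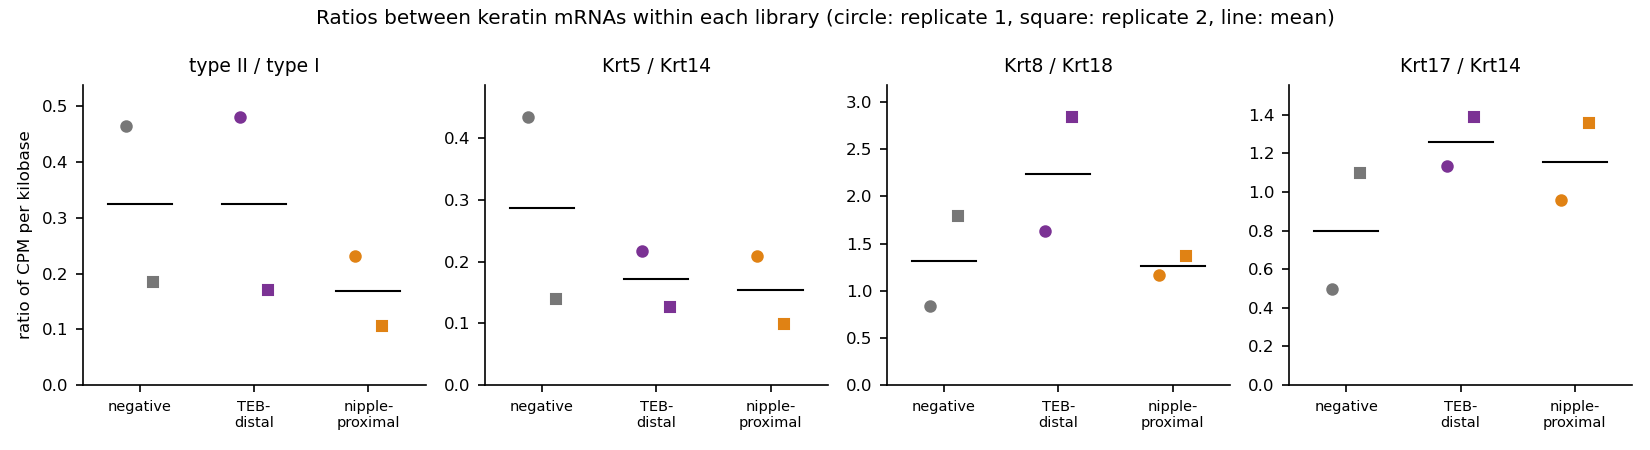
Ratios of CPM per kilobase within each library, on linear axes from 0, for summed type II over type I keratins, Krt5 over Krt14, Krt8 over Krt18 and Krt17 over Krt14; circles are replicate 1, squares replicate 2 and lines means. The type II to type I ratio stays below 1 in all 6 libraries, and Krt8 over Krt18 is higher in both TEB-distal than in both nipple-proximal libraries.

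Across the 6 libraries, log2 CPM of Krt14 and Krt17 moved closely together (Pearson r = 0.93, n = 6 libraries), as did Krt8 and Krt19 (0.91), Krt6a and Krt8 (0.94) and Krt15 and Krt23 (0.89). For the classical partners r was 0.72 for Krt5 with Krt14 and 0.71 for Krt8 with Krt18, and Krt7 and Krt23 had an r of -0.81. These coefficients describe 6 points that share depth and library effects. In negative replicate 2 Krt6a had 0 counts, so its log2 CPM of -3.85 was set by the prior count. Krt8 was also lowest in that library. Of the pairs named, only Krt14 and Krt17 have exact runs of 50 bases in common (3.34% of Krt14) and could share such reads. Of 4597 genes with a mean log2 CPM of at least 5, those most like Krt14 were Gapdh (r = 0.993, n = 6), Gm13394 (0.993) and Aldoa (0.991), of which Gapdh and Aldoa encode glycolytic enzymes. Those most like Krt8 were Pbxip1 (0.994), Abhd5 (0.993) and Map2k3 (0.988).

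Beyond the 10 members, 44 other keratin symbols were in the files, of which 11 passed the filter, 19 had no count in any library and 0 were called. The highest per kilobase that passed were Krt10, a keratin of differentiated epidermis (18.9 CPM per kilobase on average), Krt16 (5.47), Krt42 (4.56), Krt80 (1.01) and Krt1 (0.47). Krt10 had 2235 and 662 counts for TEB-distal cells, 439 and 624 for nipple-proximal cells and 318 and 2049 for negative cells. Its mean level per kilobase was above that of Krt7, but Krt7 has the longest transcript of the 10 members (4094 bases). Without division by length Krt10 averaged 39.5 CPM. Group means of Krt7 were 102 CPM for TEB-distal, 58.6 CPM for negative and 16.0 CPM for nipple-proximal cells. Of the epidermis and hair follicle markers, Krt2 and Dsc1 were at 0 in every library, and the summed list was between 22.0 and 101 CPM.

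In each of the 3 groups the library numbered 2 held more Krt15, Krt17 and Krt23 than the library numbered 1, and less Krt7 and Krt18. Of all genes tested, 9.38% were higher and 13.3% lower in all 3 groups, against 3 and 2 of 10 keratins. The ratio of library 2 to library 1 for Krt15 was 16.1 for TEB-distal, 18.9 for nipple-proximal and 120 for negative cells. For Krt23 the ratios were 2.78, 3.95 and 44.1. The luminal keratin share was lower in the library numbered 2 in each group, by the values given above. What the numbers stand for is not given in the labels.

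The proteins that anchor or use keratin filaments were examined as groups, and 0 of them was called in any comparison. Of 6 hemidesmosome and keratin anchors, 5 had a positive log2 fold change for TEB-distal against negative cells (median 0.46), 5 for nipple-proximal against negative cells (median 0.37) and 5 between the regions (median 0.30). The members with the highest CPM were Dst and Plec, plakins that tie keratin to the hemidesmosome, and Cd151. Of 7 desmosome linkers, 4, 5 and 3 were positive (medians 0.19, 0.93 and -0.01), and desmoplakin (Dsp), which ties keratin to the desmosome, was at 102 and 132 CPM in the negative, 649 and 148 CPM in the TEB-distal and 394 and 386 CPM in the nipple-proximal libraries. All 4 Gpr125+ libraries were above both negative ones for Dsp, as for 7.66% of all genes tested, the lower TEB-distal library by little. Its log2 fold changes were 1.77 (adjusted p = 0.848) and 1.74 (adjusted p = 1) in edgeR's quasi-likelihood test. Jup and Pkp3, the other linkers with the highest CPM, had log2 fold changes between -0.17 and 0.93 against negative cells.

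Of 11 epithelial transcription factors, 6, 7 and 6 had positive log2 fold changes in the 3 comparisons (medians 0.27, 0.08 and 0.22), and 0 passed even an unadjusted p of 0.05. Klf5, Tfap2c and Gata3 had the highest CPM of them. Trp63, which encodes the basal factor p63, differed by -2.27 on the log2 scale for TEB-distal against negative cells. Its standard error was 1.08 and its adjusted p 0.848 in edgeR's quasi-likelihood test. For nipple-proximal against negative cells Trp63 differed by -1.31 (standard error 1.04). Negative replicate 1 held 58.1 CPM of Trp63, whereas negative replicate 2 held 8.4 CPM. The size of both differences therefore rested mainly on negative replicate 1. Compared with negative replicate 2, both nipple-proximal libraries were higher (17.6 and 9.23 CPM). Both TEB-distal libraries were slightly lower (7.33 and 6.47 CPM). Of 10 other intermediate filament genes 9 were tested, with a median of 0.13 in each comparison; 1 gene in each direction had an unadjusted p under 0.05 for TEB-distal against negative cells, and Lmna, Vim and Nes, the highest in CPM, did not.

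Levels of marker genes that are not keratins are given beside these values, and 0 genes of any marker list were called. The 9 basal markers without keratins summed to 386 and 944 CPM in the libraries labelled negative, 2148 and 11600 CPM in the TEB-distal and 2142 and 4879 CPM in the nipple-proximal libraries. All 4 Gpr125+ libraries were above both negative ones. In each comparison with negative cells 8 of 9 genes were positive, and the exception was Trp63 (log2 fold changes -2.27 and -1.31). The medians of the log2 fold changes were 3.16 and 1.92, and 51.1% and 49.6% of all genes were positive. At an unadjusted p under 0.05 in edgeR's quasi-likelihood test, 6 and 3 of 9 passed (6.05% and 3.55% of all genes). Of these 0 were called. The highest in CPM was the smooth muscle actin gene Acta2, at 190 and 511 CPM in the negative, 1437 and 7767 CPM in the TEB-distal and 1405 and 3379 CPM in the nipple-proximal libraries, followed by the contractile genes Cnn1 and Myh11. The library with the highest sum, TEB-distal replicate 2, was also the one with the highest Krt14 and Krt17, but TEB-distal replicate 1, with a basal sum above both negative libraries, had less Krt14 than either, and whether its content of basal cells set those levels was not tested.

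The 8 luminal progenitor markers without keratins had a median log2 fold change of -1.77 for TEB-distal and -3.70 for nipple-proximal against negative cells and of 2.77 between the regions, with 4 of 8 lower in nipple-proximal cells and 2 of 8 higher in TEB-distal than in nipple-proximal cells at an unadjusted p under 0.05 (3.55% and 2.21% of all genes in either direction), of which 0 were called. Their summed level, led by Lcn2, was between 316 and 827 CPM. The 3 members highest in CPM were arranged differently. Lcn2 was at 145 and 787 CPM in the TEB-distal, 485 and 299 CPM in the nipple-proximal and 286 and 259 CPM in the negative libraries. Ltf was at 28.4 and 0.136 CPM in the TEB-distal, 0.688 and 5.23 CPM in the nipple-proximal and 222 and 15.9 CPM in the negative libraries. Aldh1a3 was at 85.0 and 20.6 CPM in the TEB-distal, 1.28 and 2.02 CPM in the nipple-proximal and 102 and 1.80 CPM in the negative libraries. Of the 3, only Aldh1a3 was higher in both TEB-distal than in both nipple-proximal libraries, as Krt7 and 15.2% of all genes tested were. Further down the list, Csn3 was so too (54.35 and 11.1 against 3.29 and 3.34 CPM). The same held for Wfdc18 (23.4 and 3.47 against 1.08 and 1.7 CPM). The hormone-sensing markers summed to 371 CPM in TEB-distal replicate 1 and to between 24.8 and 107 CPM in the other 5 libraries, and that replicate also had the highest luminal keratin share and the highest Krt7. Nipple-proximal replicate 2 had the lowest luminal share, and 88.7 of its 106 CPM of hormone-sensing markers came from Areg. Its Krt7 (11.3 CPM) was level with that of negative replicate 2 (11.4 CPM), which had the lowest hormone-sensing sum (24.8 CPM). Of these 8 markers, 8 had positive log2 fold changes for TEB-distal and 5 for nipple-proximal against negative cells (medians 1.91 and 0.63). Between the regions 6 did (median 2.81). Over all genes 51.1%, 49.6% and 52.6% were positive. In TEB-distal replicate 2 the sum was 76.3 CPM, below the 107 CPM of negative replicate 1. For TEB-distal against negative cells, 1 of 8 had an unadjusted p under 0.05 in edgeR's quasi-likelihood test (6.05% of all genes). Whether luminal cells in the sorted gate set these keratin values was not tested.

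Endothelial markers, which the CD31 step should have removed, summed to 1114 and 793 CPM in the libraries labelled negative, 17.1 and 18.9 CPM in the TEB-distal and 204 and 23.7 CPM in the nipple-proximal libraries. All 8 had negative log2 fold changes in both comparisons with negative cells, with Emcn, Egfl7 and Cdh5 the highest in CPM, and 7 and 3 of them had an unadjusted p under 0.05 (6.05% and 3.55% of all genes), while 0 were called. The 2 negative libraries with the highest endothelial sums had the lowest 2 sums of basal markers, and their part in the keratin differences against negative cells was not tested. The 6 general epithelial markers, led by Epcam, Cdh1 and Cldn4, summed to 818 and 898 CPM in the negative, 1557 and 521 CPM in the TEB-distal and 1025 and 939 CPM in the nipple-proximal libraries. Fibroblast markers, led by Dcn, summed to between 28.6 and 172 CPM. All 7 had positive log2 fold changes for TEB-distal cells against negative cells (median 2.01) and against nipple-proximal cells (median 2.83), 2 of 7 were positive for nipple-proximal against negative cells (median -0.39), and their part in the keratin differences was not tested. The methods text also lists an antibody to the fibroblast protein CD140a among its lineage antibodies. Leukocyte markers, led by Cd68, summed to between 64.1 and 295 CPM, and pericyte, adipocyte and erythroid markers to at most 24.4, 2.22 and 1.32 CPM.

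**Figure D5:**
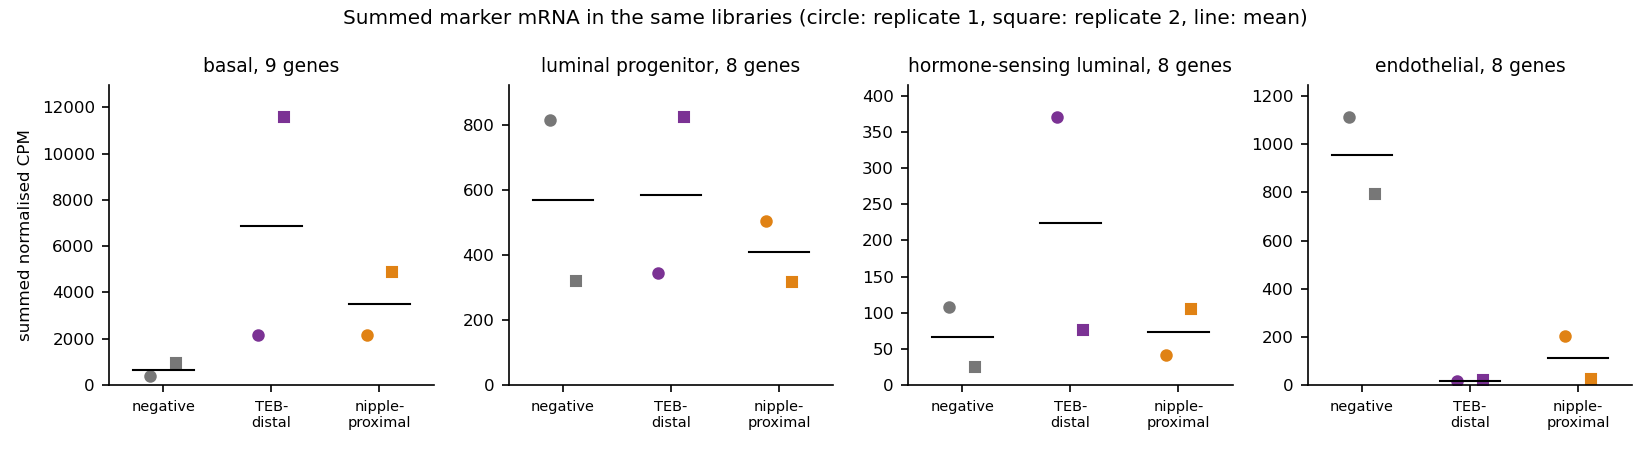
Summed normalized CPM of 4 marker lists without keratins in the same 6 libraries, on linear axes from 0; circles are replicate 1, squares replicate 2 and lines means. The basal sum is between 386 and 944 in the negative and between 2142 and 11600 in the Gpr125+ libraries, and the endothelial sum is 793 and 1114 in the negative and at most 204 in the Gpr125+ libraries.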

How the data were processed

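The authors aligned reads of low-input SMART-Seq HT libraries to mm10 with STAR and counted them per gene with HTSeq, without regard to strand. They deposited raw counts per gene, one file per library. A kit of this kind has no molecular identifiers, and genes that overlap on the opposite strand (Krt5, Krt6a, Krt7 and Krt8) cannot be separated from their partners. The submitters' processing notes name CASAVA and STAR 2.7.3, the methods text names an earlier STAR version, and the annotation release used for counting is not given in the sources used here.

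Libraries were grouped by their titles. Counts were normalized with TMM, filtered with filterByExpr by group and tested with glmQLFit (robust) and glmQLFTest in edgeR 4.0.16 (R 4.3.3) in 1 model of all 6 libraries, with Benjamini-Hochberg adjustment over all 17268 genes. A gene was called at a false discovery rate under 0.1 and at least 2-fold. Standard errors came from the F statistic. CPM per kilobase used the longest protein-coding GENCODE M21 transcript, and 53292 of 55291 symbols (96.4%) matched that annotation. Log2 CPM used a prior count of 2. DESeq2 1.42.0, other filters, size factors, 4-library fits, the replicate number as a block and leaving out each library were alternatives. No 2 libraries held the same counts, and log2 CPM of replicates correlated at 0.733 (negative), 0.791 (TEB-distal) and 0.933 (nipple-proximal).

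All members are described. Beyond them, named genes were up to 5 other tested keratins by level, 3 genes most like Krt14 and Krt8, and up to 3 members of each list with the highest CPM. Trp63, Krt2, Dsc1, Csn3 and Wfdc18, outside this rule, were named after their values were seen. The members and lists were chosen with earlier results of these data known. In simulated counts for TEB-distal against negative cells (199 changed genes), edgeR recovered 0% at 4-fold (16196 genes) and 74.4% at 64-fold (16262 genes), and called 0 and 1 genes where nothing was changed. DESeq2 recovered 16.1% and 87.9%, and called 232 and 248 genes where nothing was changed.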

Additional observations from a re-analysis of the deposited data

How the results depend on the processing

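With 2 libraries a group and a wide spread, the edgeR test could find only very large changes, so a keratin that was not called may still differ. All 30 keratin fold changes kept their direction and stayed uncalled with DESeq2 on 6 libraries, DESeq2 size factors, no filter, a filter of mean CPM of at least 1, edgeR on 4 libraries and no robust estimation. DESeq2 on the 4 compared libraries called 1 keratin between the regions, Krt7 (2.72), and did so again without the filter (1 keratin, 2.73), an alternative chosen after seeing the data. Calls over all genes went from 0, 0 and 0 with edgeR to 635, 208 and 101 with DESeq2 on 6 libraries, 313, 166 and 242 on 4 libraries, 667, 317 and 360 on 4 libraries without the filter, and 137, 58 and 39 with edgeR without the filter. In the simulation DESeq2 on 6 libraries also called genes where nothing had been changed. Fits on 4 libraries, which called Krt7, were not simulated.

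The labels give the replicate numbers no meaning beyond a number, and the deviations of same-numbered libraries correlated at -0.03 (TEB-distal and negative), 0.194 (nipple-proximal and negative) and -0.005 (TEB-distal and nipple-proximal). With the replicate number as a block, 0 genes and 0 keratins were called, and for TEB-distal against negative cells Krt5 (0.13), Krt18 (0.16) and Krt23 (0.66) changed sign. From the 4 main keratins alone the mean luminal share was 27.3% in place of 18.4% for nipple-proximal, 43.6% in place of 30.9% for TEB-distal and 38.1% in place of 30.9% for negative cells.

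Leaving out 1 library at a time gave 0 to 1 called keratin for TEB-distal against negative cells and 0 in the other comparisons. The 1 was Krt6a without Gpr125-negative replicate 1 (fitted log2 fold change 10.36, adjusted p = 0.0793, edgeR's quasi-likelihood test), where the remaining negative library has 0 counts and the value is no bound; 747 genes were then called, and 335 for nipple-proximal cells. The remaining library was assumed to vary like the other groups. The luminal share ranged from 20.1% to 41.7% in negative, 15.6% to 46.3% in TEB-distal and 14.2% to 22.6% in nipple-proximal cells. Log2 fold changes that changed sign, for TEB-distal against negative cells, ranged from -1.22 to 1.09 for Krt5, -0.74 to 1.80 for Krt14, -0.47 to 8.51 for Krt15, -0.18 to 2.65 for Krt17, -0.052 to 3.03 for Krt7, -0.96 to 1.29 for Krt18 and -1.62 to 3.95 for Krt23. For nipple-proximal against negative cells they ranged from -0.19 to 1.64 for Krt5, -0.10 to 9.10 for Krt15, -2.72 to 0.36 for Krt7 and -0.49 to 1.76 for Krt18. Between the regions they ranged from -1.71 to 0.12 for Krt5, -2.27 to 0.36 for Krt14, -3.68 to 2.72 for Krt15, -2.32 to 0.60 for Krt17, -0.0054 to 0.71 for Krt8 and -0.35 to 0.85 for Krt19. The cause was not tested. Nipple-proximal against negative cells kept its direction for Krt14 (1.36 to 1.67) and Krt17 (1.64 to 2.61). So did the regions for Krt7 (2.30 to 3.17) and Krt23 (-3.48 to -1.27). In these cases the groups did not overlap, so leaving out 1 library could hardly reverse the sign. Among keratins whose groups overlapped, Krt23 (0.73 to 6.51) and Krt19 (0.12 to 2.12) also kept their direction for nipple-proximal against negative cells. So did Krt8 (0.078 to 1.22) and Krt6a (0.0069 to 9.76). For TEB-distal against negative cells, Krt19 kept its direction (0.44 to 2.47). Krt8 (0.43 to 1.60) and Krt6a (0.59 to 10.36), whose groups did not overlap there, kept theirs. Between the regions Krt18 did so (-0.79 to -0.08), and Krt6a (0.04 to 1.46), again without overlap.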
